A study of Mus musculus with 16 samples.

Results

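Gene expression in Tet2-deficient mouse bone marrow progenitors kept at 3% oxygen was compared with that of the same kind of cells after 6 hours in ambient air. The comparison takes 8 of the 16 libraries of the study, 4 replicates in air and 4 in physioxia, and all genes of the table used here. The donors were Tet2-/- mice aged 3 to 4 months, of both sexes, and the labels list C57Bl/6J as the strain. Marrow of both groups was flushed and crushed inside a chamber at 3% oxygen, so the air group also began in physioxia. CD45+ cells were enriched there by lineage depletion and selection for Kit and Sca1 (the LSK fraction) and then split into an arm that stayed in the chamber and an arm that was moved to air (about 21% oxygen). The other 8 libraries are the same 2 arms from wild-type (WT) C57Bl/6J mice and serve below as the reference response. A Tet2-/- genotype is not restricted to blood cells, and enrichment, unlike sorting, leaves other cells in the sample. The question addressed is how exposure to air during collection alters RNA in cells that lack Tet2.

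The LSK fraction holds the haematopoietic stem cells and multipotent progenitors, which reside in marrow at low oxygen tension. Tet2 is a dioxygenase that uses molecular oxygen to oxidise methylated cytosine in DNA, and its loss is a common lesion in clonal haematopoiesis and myeloid malignancy. Cells sense oxygen mainly through prolyl and asparaginyl hydroxylases that mark the alpha subunits of hypoxia-inducible factors (HIF) for degradation or block their activity when oxygen is plentiful. Stable HIF switches on glucose transport, glycolysis and erythropoietic genes.

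The values are the authors' normalized counts, which are read counts divided by 1 size factor per library. The table held 6288 genes, of which 6110 reached a normalized count of 10 in 4 or more libraries and were tested. Read totals over the genes of the table, not the whole libraries, were 11 to 13.0 M in Tet2-deficient air and 7.77 to 12.8 M in physioxia. Of its genes, 98.25% differed between some pair of groups by DESeq2 (unadjusted p under 0.05, among 4 comparisons that change genotype or oxygen), and only 4 did so in the Tet2-deficient oxygen comparison alone. Counts below therefore describe a table that holds almost no gene particular to that comparison, not the transcriptome. Correlations between replicates, over log2 values of all genes, were 0.966 to 0.985 in both arms together.

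Tet2 was counted in all 8 libraries. Its normalized counts, in replicate order, were 626, 564, 519 and 506 in air and 489, 447, 463 and 530 in physioxia, and the groups overlapped. In WT cells the means were 855 ± 157 in air and 731 ± 97.4 in physioxia (means are given ± SD throughout, with n = 4). Which exons were deleted is not given in the sources used here, so a count over the whole gene checks the genotype labels only in part. Kit, the stem cell factor receptor used in the enrichment, stood at 6737 ± 1095 in air and 6490 ± 810 in physioxia. Procr, a surface marker of stem cells, stood at 395 ± 30.0 and 349 ± 57.8. Sca1 (Ly6a) is not analysed here.

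Libraries of one arm were not alike. Erythroid progenitor genes, 30 measured, had mean levels on the log2(normalized count + 1) scale of 11.21, 11.19, 12.98 and 11.95 in the 4 air libraries. In physioxia they were 11.22, 12.81, 11.77 and 11.17. Air library 3 and physioxia library 2 thus stood highest. Slc4a1, the red cell anion exchanger, shows the same libraries, at 3186, 2892, 23272 and 5710 in air and 2352, 16718, 3069 and 2555 in physioxia. In bulk RNA, more cells of a type and more RNA per cell cannot be told apart. The 10 most abundant genes took 16.2%, 16.2%, 12.3% and 13.1% of the reads in the table in air and 13.1% to 15% in physioxia.

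No gene passed the test between physioxia and air in Tet2-deficient cells. With limma on log2(normalized count + 1), fitted over all 16 libraries with Benjamini-Hochberg adjustment, 0 of 6110 genes (0%) had an adjusted p under 0.05, and the smallest adjusted p was 0.194. At an unadjusted p under 0.05 there were 280 genes (4.58%, where evenly spread p-values would give 5%), 200 higher in physioxia (3.27%) and 80 lower (1.31%). The p-values were not evenly spread, with 200 genes from 0.15 to 0.2 and 386 from 0.95 up. The 5% is therefore not a like baseline. The arms did not overlap for 229 genes (3.75%), 142 higher in physioxia (2.32%) and 87 lower (1.42%). A log2 difference past 1 in size was seen for 126 genes (2.06%), against 521 in WT cells (8.53%). The 95% interval of the log2 difference had a median half-width of 0.455, and was narrower than ±1 for 86.7% of genes. In WT cells 1189 genes had an unadjusted p under 0.05 (19.5%) and 352 passed the same test (5.76%), 300 higher (4.91%) and 52 lower (0.851%) in physioxia. In the order of the table, gene ids rise in 4 runs. The last run holds 647 of the tested genes and 269 of the 352. An unadjusted WT limma p under 0.05 was found for 79% of that run, and for 16.3%, 13.3% and 7.24% of the others. In Tet2-deficient cells the shares were 13.4% in the last run and 6.61%, 2.07% and 3.25% in the others. The WT counts thus rest largely on 1 part of a table whose choice of genes is not given. The median size of the log2 difference over all genes was 0.121 in Tet2-deficient and 0.225 in WT cells. By DESeq2 on the recovered reads 9 genes passed in Tet2-deficient cells (0.147%), and by edgeR's quasi-likelihood test 0 (244 at an unadjusted p under 0.05).

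**Figure D1:**
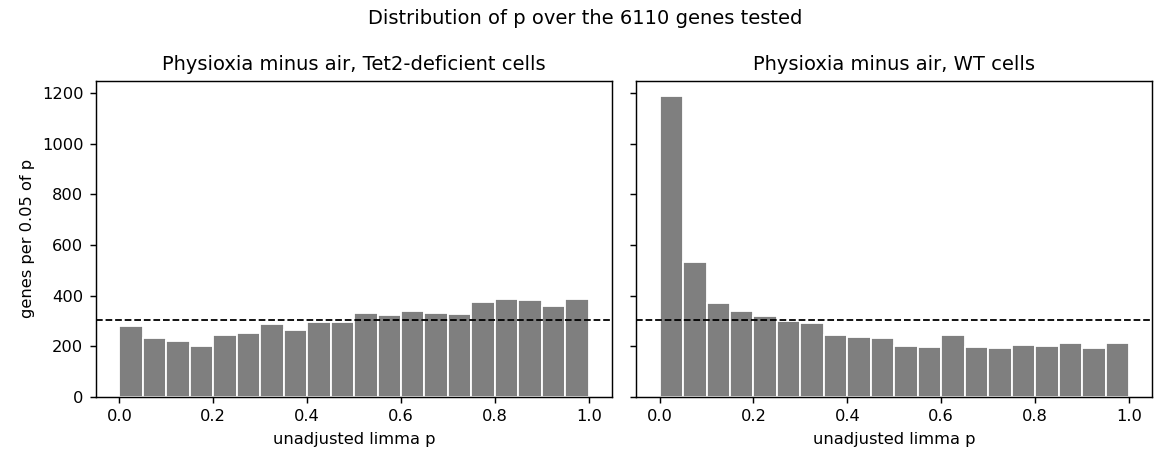
Number of genes in each 0.05-wide bin of unadjusted limma p (x axis) for physioxia minus air in Tet2-deficient cells (left) and WT cells (right), 6110 genes each. The dashed line is an even spread. The first bin holds 280 genes in Tet2-deficient and 1189 in WT cells, and the last bin 386 and 213.

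The gene with the smallest p was Sgk1, a serum- and glucocorticoid-regulated kinase that acts on ion channels and on FoxO factors (GRCm38 chromosome 10, 21882184 to 21999903). Its normalized counts were 457, 340, 343 and 349 in air and 222, 160, 155 and 186 in physioxia. All 4 physioxia libraries lay far below every air library, but separate arms were a condition for naming the gene. The log2 difference was −1.04 ± 0.20 (log2 differences are given ± SE throughout; adjusted p = 0.194 by limma and 0.00119 by DESeq2), beside −0.77 in WT cells (limma adjusted p = 0.0302). Hps6, a subunit of a complex that forms lysosome-related organelles, was at 439, 386, 403 and 330 in air and 245, 193, 167 and 320 in physioxia. These arms were separate by a small margin, since physioxia library 4 came close to air library 4 (−0.79 ± 0.19, limma adjusted p = 0.367). In WT cells Hps6 passed the test (−0.81, adjusted p = 0.0191).

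Id3, Bambi and Hes5 also had lower values in physioxia. Id3, a dominant-negative helix-loop-helix factor induced by BMP signals, was at 4784, 4436, 3993 and 3783 in air and 3692, 2433, 2734 and 3274 in physioxia (−0.50 ± 0.14, limma adjusted p = 0.601). Bambi, a pseudoreceptor that dampens TGF-beta signals, averaged 2328 ± 233 in air and 1654 ± 341 in physioxia. Hes5, a Notch target that represses transcription, averaged 93.3 ± 20.7 and 46.4 ± 9.30. The arms of these 3 genes did not overlap, and in each the physioxia library nearest to air was library 1 or 4. In WT cells the log2 differences were −0.00 for Id3, −0.25 for Bambi and −0.26 for Hes5, none past the test. Sertad1, a cofactor of cyclin-dependent kinase 4 and E2F, averaged 1638 ± 108 in air and 1084 ± 274 in physioxia (−0.63 ± 0.16). Nfkbid, an atypical inhibitor of NF-kB, averaged 3521 ± 476 and 2244 ± 635 (−0.69 ± 0.23). Fam83d, a mitotic spindle protein, averaged 378 ± 58.3 and 266 ± 64.1, and passed the test in WT cells (−0.79, adjusted p = 0.0208). The other 7 of the 15 genes named for lower values (Fam43a, Ankrd9, Usf1, Tapbpl, Ccdc85b, Tatdn2 and Zfp954) had log2 differences of −0.27 to −0.72. Of the 15, chosen by p with separate arms, 3 passed the WT test in the same direction (0.851% of all genes did). Both contrasts share 1 spread per gene, so genes chosen by p in Tet2-deficient cells tend to small p in WT cells. The share of all genes is therefore not a like baseline.

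**Figure D2:**
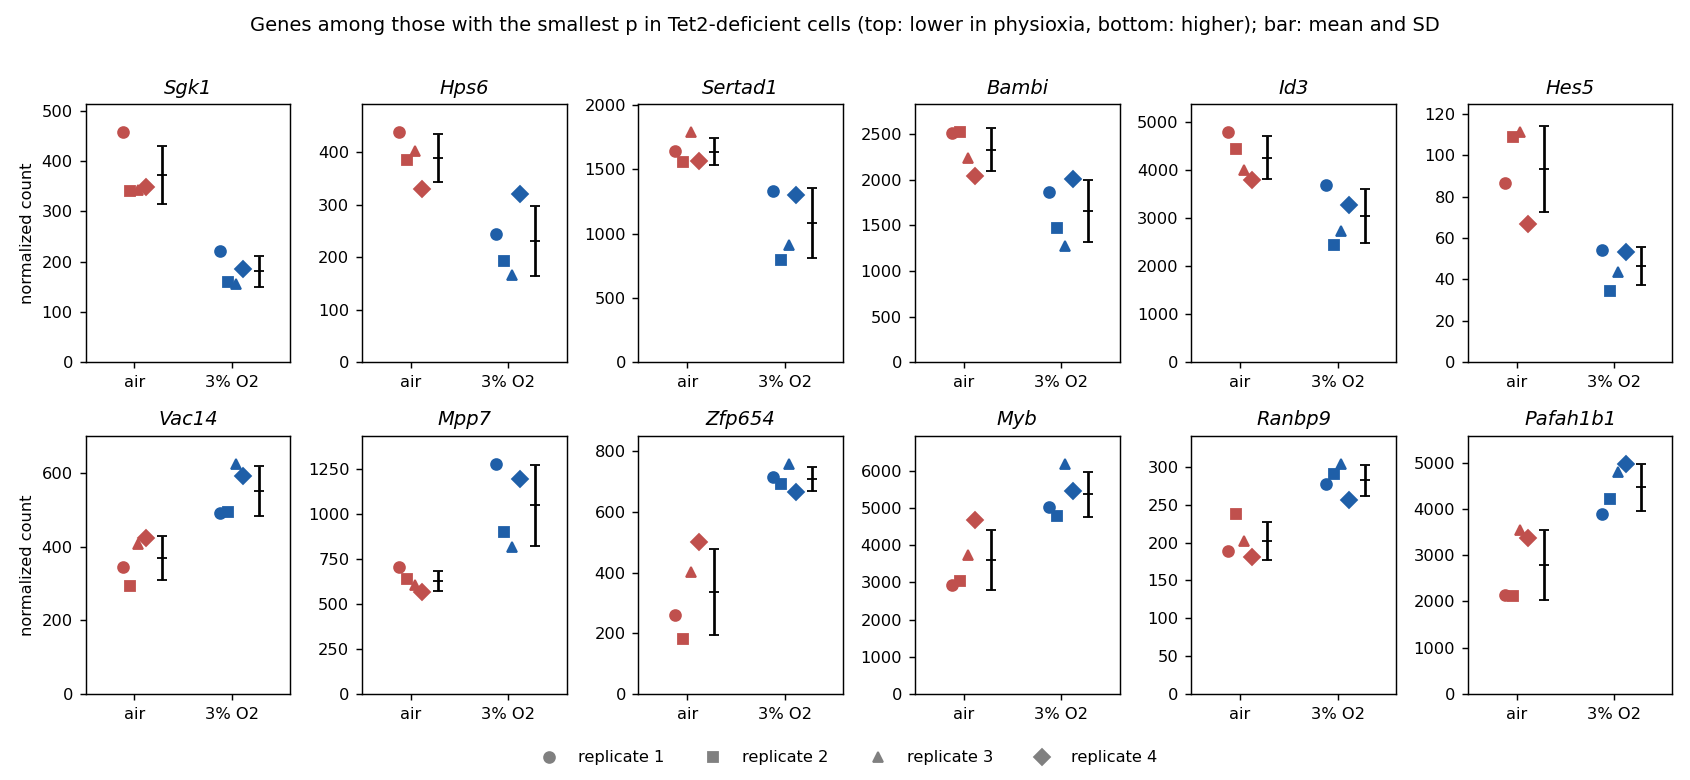
Normalized count (y axis, from 0) in each Tet2-deficient library for 6 genes per direction among those with the smallest p, separate arms and a mean of at least 50. Air is red and physioxia (3% O2) blue, symbols give the replicate number, and bars give mean and SD. In Zfp654 and Myb, air libraries 1 and 2 sit lowest and air libraries 3 and 4 nearer to physioxia, while Mpp7 and Ranbp9 do not follow that order.

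Vac14 and Mpp7 were among the genes with higher values in physioxia. Vac14, the scaffold of the kinase complex that makes phosphatidylinositol 3,5-bisphosphate, was at 346, 294, 408 and 425 in air and 491, 496, 627 and 592 in physioxia (0.59 ± 0.13, limma adjusted p = 0.353, DESeq2 adjusted p = 0.0166). Its air libraries 3 and 4 lay above air libraries 1 and 2. In WT cells Vac14 passed the test (0.60, limma adjusted p = 0.0161). Mpp7, a membrane-associated scaffold of cell polarity, was at 702, 638, 603 and 565 in air and 1279, 901, 815 and 1196 in physioxia (0.72 ± 0.17, limma adjusted p = 0.362, DESeq2 adjusted p = 0.026). Separate arms were a condition for naming both genes. Physioxia libraries 1 and 4 were the highest for Mpp7.

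Myb, a transcription factor required for definitive haematopoiesis, was at 2937, 3031, 3740 and 4675 in air and 5033, 4782, 6194 and 5445 in physioxia. Air library 4 came close to the physioxia libraries (0.60 ± 0.15, limma adjusted p = 0.421, beside 0.70 in WT cells, adjusted p = 0.0153). Zfp654, a zinc finger gene, was at 259, 182, 403 and 500 in air and 715, 694, 760 and 666 in physioxia (1.18 ± 0.28). Ccng2, an atypical cyclin linked to cell cycle arrest, was at 385, 328, 876 and 885 in air and 1075, 1141, 1321 and 1602 in physioxia (1.18 ± 0.32). In both, air libraries 3 and 4 lay between air libraries 1 and 2 and the physioxia arm. Pafah1b1, a dynein regulator of nuclear position, was at 2143, 2116, 3538 and 3366 in air and 3894, 4217, 4792 and 4985 in physioxia (0.71 ± 0.18). Uso1, a vesicle tether of the secretory pathway, averaged 305 ± 124 in air and 558 ± 94.6 in physioxia. Alg9, a mannosyltransferase of N-glycan assembly, averaged 348 ± 127 and 556 ± 46.1. Csnk1d, a casein kinase of the clock and other pathways, averaged 4558 ± 930 and 6176 ± 460.

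Ets1, Macf1, Aff4 and Ranbp9 did not follow that order among the air libraries. Ets1, a lymphoid and stromal transcription factor, was at 534, 609, 596 and 576 in air and 822, 692, 943 and 742 in physioxia. Macf1, a giant crosslinker of actin and microtubules, was at 622, 689, 619 and 579 in air and 884, 894, 901 and 786 in physioxia, and its WT log2 difference was −0.02. Aff4, a scaffold of the super elongation complex, averaged 399 ± 41.4 and 560 ± 49.9, and Ranbp9, a scaffold of the CTLH ubiquitin ligase, 203 ± 25.1 and 282 ± 20.5. These genes were chosen for separate arms and small p, so that choice itself favours a small spread beside the distance between the arms. Of the 15 genes that met the same rule for higher values, which include Rnf26, 9 passed the WT test in the same direction (4.91% of all genes did). The spread shared by both contrasts again makes that share no like baseline.

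HIF targets and glycolysis genes had small differences between physioxia and air. Of 40 listed genes the table held 16, and all 16 were tested. None passed, none had an unadjusted p under 0.05, and 5 had positive and 11 negative log2 differences, with a median of −0.06 beside −0.00 over all genes. Leaving out 1 library at a time kept that median between −0.08 and −0.01. Across all 32 gene lists, such a step changed the sign of the median of 21, all with a median of at most 0.106 in size, and each of the 8 libraries did so for at least 1 list. The log2 differences of the 16 HIF target and glycolysis genes lay between −0.28 and 0.16, with a median interval half-width of 0.306. Slc2a1, the main glucose transporter, was at 1176, 1133, 842 and 739 in air and 1419, 851, 754 and 1355 in physioxia. Its values overlapped, and physioxia libraries 2 and 3 were as low as air libraries 3 and 4 (0.14 ± 0.20, 95% interval −0.29 to 0.58). Pdk1, which restrains pyruvate entry into mitochondria, averaged 3332 ± 392 in air and 3115 ± 323 in physioxia (interval −0.36 to 0.17). Mxi1, a MYC antagonist, averaged 349 ± 9.75 and 334 ± 14.9 (interval −0.32 to 0.19). Pgam1, a glycolytic mutase, averaged 3020 ± 298 and 2738 ± 204 (interval −0.36 to 0.08). Ddit4, an inhibitor of mTOR complex 1, averaged 2487 ± 468 and 2156 ± 412, and Pfkp, a phosphofructokinase, 1107 ± 163 and 1233 ± 149. The aldolase Aldoc had the lowest value of the list (−0.28 ± 0.23). Bhlhe40, a circadian and hypoxia-responsive repressor, was at 6625, 6157, 3610 and 3434 in air and 6217, 3338, 2994 and 6566 in physioxia. Its high and low libraries were found in both arms.

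Oxygen sensors and oxygen-dependent dioxygenases were likewise within the spread. Of 10 measured, 6 had positive and 4 negative log2 differences (median 0.04), and none passed. The median was −0.10 without physioxia library 4, −0.04 without air library 1 and −0.01 without physioxia library 1. Hif1a was at 1820, 2066, 1659 and 2027 in air and 2032, 1539, 1750 and 1967 in physioxia (−0.06 ± 0.16, interval −0.40 to 0.29). Hif1an, the asparaginyl hydroxylase that inhibits HIF, averaged 745 ± 72.4 and 660 ± 19.8 (interval −0.43 to 0.09). Hif3a, a HIF paralogue, was at 54, 71.2, 115 and 89.7 in air and 102, 109, 99.2 and 110 in physioxia. Tet1, the paralogue of Tet2, averaged 666 ± 71.8 and 691 ± 53.4 (0.06 ± 0.19), beside −0.52 in WT cells (adjusted p = 0.122). Dnmt3b, on the same list, is a de novo DNA methyltransferase and not an oxygen sensor or dioxygenase. It had an unadjusted limma p of 0.0456, with 928 ± 178 in air and 710 ± 194 in physioxia. Its arms overlapped (limma adjusted p = 1.0).

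**Figure D3:**
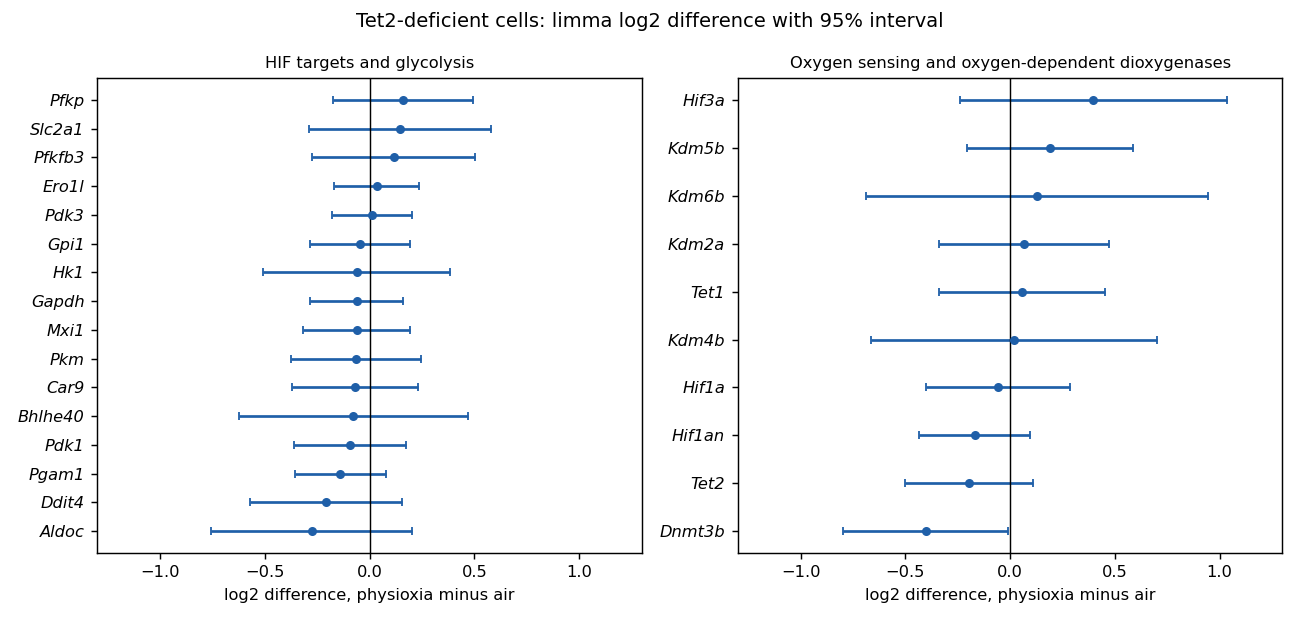
Log2 difference between physioxia and air in Tet2-deficient cells (x axis, limma, points) with 95% interval (bars). Shown are the 16 HIF target and glycolysis genes and the 10 genes measured of the oxygen sensing list. That list includes Dnmt3b, a DNA methyltransferase. All intervals but that of Dnmt3b include 0.

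No immediate early gene passed the test. Of 24 measured AP-1 and immediate early genes 7 had positive and 17 negative log2 differences (median −0.15), and 2 had an unadjusted p under 0.05. Of all 6110 genes 2997 were positive and 3104 negative, and 4.58% had an unadjusted limma p under 0.05. Dusp6, a phosphatase that feeds back on ERK, was at 10530, 11187, 9583 and 8891 in air and 9077, 6925, 6281 and 8432 in physioxia (−0.40 ± 0.12, limma adjusted p = 0.737). Physioxia libraries 2 and 3 were the lowest. Ier2, a nuclear immediate early protein, averaged 113440 ± 29022 in air and 81251 ± 19040 in physioxia (−0.48 ± 0.21). Myc was at 15316, 15347, 15324 and 14527 in air and 13952, 14286, 13393 and 14106 in physioxia. The arms of Myc did not overlap, although the log2 difference was only −0.12 ± 0.11. Fos averaged 24887 ± 975 and 24964 ± 6207, Jun 279350 ± 60380 and 238490 ± 61495, Egr1 68107 ± 12946 and 70581 ± 21295, and Dusp1 25690 ± 5061 and 26306 ± 4216. All 4 overlapped between the arms. The mean log2 level of the list was 12.26, 12.34, 12.10 and 12.18 in air and 12.27, 11.90, 11.91 and 12.26 in physioxia, so that physioxia libraries 1 and 4 lay within the air range and libraries 2 and 3 below it. Without physioxia library 3 the median was −0.09.

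Of 18 TNF and NF-kB response genes 8 had positive and 10 negative log2 differences (median −0.05, but 0.04 without physioxia library 3). Nfkbid and the cytokine gene Il6 had an unadjusted limma p under 0.05, as did 4.58% of all genes. Il6 was low in every library, at 24.6, 24.3, 10.0 and 21.2 in air and 13.0, 11.9, 9.51 and 14.6 in physioxia. Nfkbia, the inhibitor of NF-kB that NF-kB itself induces, averaged 29197 ± 2385 and 23816 ± 6249 (−0.33 ± 0.16), with overlapping arms. Among 22 interferon response genes 7 had positive and 15 negative values (median −0.08, but −0.00 without air library 3), and the lowest p was that of Ifi44, at 214 ± 31.1 and 162 ± 32.1 (unadjusted p = 0.0452).

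Stress lists were spread about 0. The median log2 difference was −0.01 for 13 heat shock and unfolded protein genes, −0.05 for 9 genes of the ATF4 response, 0.05 for 18 NRF2 target and antioxidant genes and 0.05 for 15 p53 targets. Each of these 4 medians changed sign when 1 library was left out, the widest range being −0.03 to 0.14 for the NRF2 list, without air library 1 and without air library 4. Nfe2l2, which encodes NRF2, was at 1730, 1908, 1566 and 1549 in air and 2057, 1949, 2022 and 1786 in physioxia (0.21 ± 0.09, limma adjusted p = 1.0). Only physioxia library 4 fell within the air range. Txnrd1, a thioredoxin reductase and NRF2 target, averaged 2278 ± 660 and 2784 ± 207 (0.34 ± 0.18), and passed in WT cells (0.73, adjusted p = 0.026). Gadd45a, a p53 target, was at 795, 393, 1648 and 1109 in air and 1242, 1228, 1169 and 1301 in physioxia. Its physioxia libraries were close together, and the air libraries lay on both sides of them. Plk3, a stress-responsive kinase, was at 313, 310, 310 and 1023 in air and 326, 208, 163 and 384 in physioxia, and air library 4 alone set its air mean.

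Of 16 TGF-beta signalling genes 8 had positive and 8 negative values (median 0.01, with −0.05 without physioxia library 4 and 0.11 without physioxia library 3). Id1, a relative of Id3, was at 1683, 1507, 1598 and 1505 in air and 1268, 1098, 1358 and 954 in physioxia, with arms that did not overlap (−0.44 ± 0.22, limma adjusted p = 1.0). The ligand Tgfb1 was at 593, 361, 1415 and 1846 in air and 1409, 1225, 1314 and 1841 in physioxia. Air libraries 1 and 2 were far below the others, and air libraries 3 and 4 at the level of physioxia. Orai1, the pore of store-operated calcium entry, was the member of the calcium handling list with the smallest p, at 274, 262, 500 and 617 in air and 675, 520, 620 and 789 in physioxia (0.74 ± 0.27, limma adjusted p = 0.977, beside 1.47 in WT cells, adjusted p = 0.00964).

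No gene of the stem cell and lineage lists passed the test. Of 22 long-term stem cell genes 7 had positive and 15 negative values (median −0.02, but −0.14 without physioxia library 1 and 0.02 without physioxia library 2) and none had an unadjusted p under 0.05. Of 30 erythroid genes 10 were positive and 20 negative (median −0.11), and that median was 0.30 without air library 3, 0.07 without physioxia library 1 or 4, −0.38 without physioxia library 2, 0.54 without air libraries 3 and 4 and −0.58 without air libraries 1 and 2. Ezh2, the methyltransferase of Polycomb complex 2, was at 1782, 1730, 2427 and 2610 in air and 2560, 2870, 3093 and 2567 in physioxia (0.39 ± 0.15, limma adjusted p = 0.984), and passed in WT cells (0.80, adjusted p = 0.00964). Lmo2, a bridging factor of stem and erythroid gene complexes, was at 6980, 4052, 8905 and 7999 in air and 8418, 8209, 8169 and 7686 in physioxia. Irf8, a factor of monocyte and dendritic fate, averaged 6569 ± 557 and 5721 ± 321 with separate arms and a log2 difference of −0.20 ± 0.17. Dntt, which marks lymphoid priming, averaged 1402 ± 41.8 and 1262 ± 132.

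Markers of mature neutrophils were low in Tet2-deficient libraries, with summed normalized counts of 1903 to 2964 in air and 2320 to 3326 in physioxia against 4039 to 17420 in WT libraries. Of 12 tested 8 had positive and 4 negative log2 differences (median 0.40, but 0.17 without physioxia library 3 and 0.18 by edgeR with TMM). Camp, a granule antimicrobial peptide, was at 25.4, 11.3, 39 and 40.6 in air and 41.3, 59.4, 107 and 57.6 in physioxia, with arms just apart (1.23 ± 0.40, limma adjusted p = 0.904). Ngp, another granule protein, averaged 293 ± 64.9 and 508 ± 70.6, also with separate arms, and S100a9 164 ± 142 and 274 ± 173. The part of neutrophil RNA in other results was not tested. Among 11 monocyte and macrophage markers Ly86, a partner of a Toll-like receptor homologue, averaged 508 ± 44.4 and 361 ± 30.4 with separate arms (−0.49 ± 0.21). Acod1, the itaconate enzyme of activated macrophages, was at 18.8, 13.9, 9.01 and 8.46 in air and 28.4, 25.9, 13.6 and 23.2 in physioxia (0.83 ± 0.30). The 26 T and NK cell markers, 10 dendritic, 5 B cell, 21 basophil and mast cell and 6 stromal markers had medians of −0.07, 0.01, −0.03, 0.00 and 0.04, all but that of the B cell markers changing sign with 1 library left out.

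Of 17 replication-dependent histone genes 16 had negative values (median −0.22, range −0.37 to 0.01), and none had an unadjusted p under 0.05. Of all 6110 genes 3104 had negative values. The median was −0.10 without air library 4, −0.48 without air library 2, −0.01 without air libraries 3 and 4 and −0.49 without air libraries 1 and 2. The linker histone Hist1h1b averaged 959 ± 107 and 832 ± 98.1. The S phase (12 genes) and G2/M (8 genes) lists had medians of −0.05 and −0.02. Without air library 3 these were 0.11 and 0.06, and without physioxia library 2 −0.17 and −0.08. Leaving out physioxia library 1 or 4, and for G2/M also air library 4, changed the sign as well. All 5 measured genes of nuclear oxidative phosphorylation had positive values (median 0.08, but −0.03 without air library 2, where the mean level of the list was 10.39 against 11.02 to 11.05 in the other air libraries), led by Ndufb2, a complex I subunit, at 395, 199, 281 and 350 in air and 450, 339, 400 and 437 in physioxia (0.44 ± 0.20, limma adjusted p = 1.0). The 3 mitochondrially encoded genes had a median of 0.16, and of 0.07 without physioxia library 3.

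Genes that passed the oxygen test in WT cells mostly differed in the same direction in Tet2-deficient cells, by less. The WT contrast chose these genes, so their WT values are a description and are raised by that choice. Of the 300 genes higher in WT physioxia, 255 (85%) had a positive log2 difference in Tet2-deficient cells, against 49.1% of all genes. The median was 0.397 with quartiles of 0.137 and 0.724, beside 1.40 in WT cells. It was 0.206 without air library 2, 0.596 without air library 4 and 0.259 by edgeR with TMM. An unadjusted p under 0.05 was reached by 72 of the 300 in the same direction and by 0 in the opposite one, against 3.27% and 1.31% of all genes. Of the 52 genes lower in WT physioxia, 44 (84.6%) had a negative log2 difference in Tet2-deficient cells (median −0.243, beside −0.891), and 14 of the 52 had an unadjusted p under 0.05 in that direction, against 1.31% of all genes. Both contrasts share 1 spread per gene, so genes that pass in WT cells tend to small p here. For the counts by p, the shares of all genes are therefore not a like baseline.

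**Figure D4:**
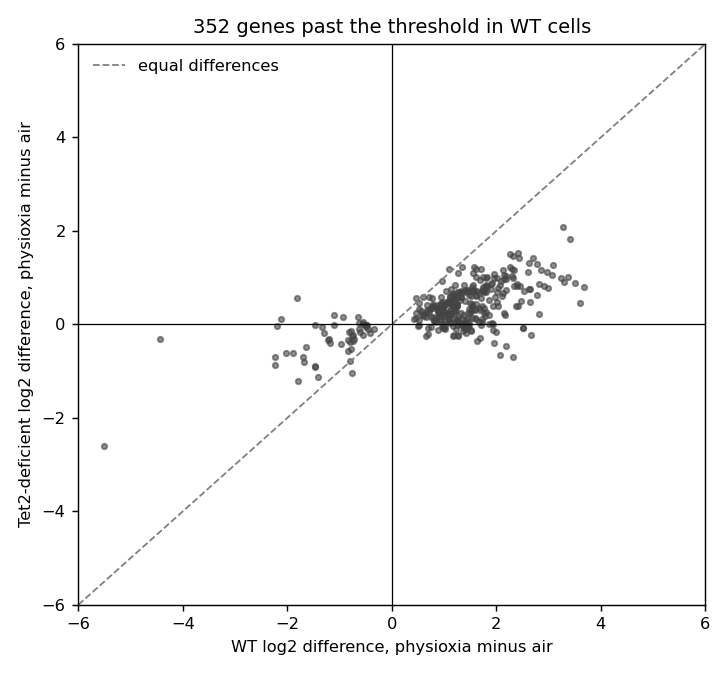
Log2 difference between physioxia and air in WT cells (x axis) and Tet2-deficient cells (y axis) for the 352 genes past the threshold in WT cells, which chose them. The dashed line marks equal differences. Of the 300 genes on the right 255 are above 0, and of the 52 on the left 44 are below 0.

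This partial shift was not shared by the 4 air libraries. The 300 genes had mean log2 levels of 8.69, 8.64, 9.68 and 9.94 in air and 9.60, 9.62, 9.71 and 9.80 in physioxia. In WT cells they were 8.00, 8.13, 8.67 and 8.01 in air and 9.89, 10.08, 9.63 and 9.32 in physioxia. Air libraries 1 and 2 thus lay below every Tet2-deficient physioxia library, and air libraries 3 and 4 within or above the physioxia range. Counted by gene, air library 1 was below all 4 physioxia libraries for 275 of the 300 genes (91.7%), air library 2 for 235 (78.3%), air library 3 for 78 (26%) and air library 4 for 51 (17%). Over all genes these shares were 25.6%, 21.9%, 20.7% and 19.2%. By mean level the 52 genes lower in WT physioxia divided the air libraries less, with 7.96, 7.99, 7.88 and 7.74 in air and 7.43, 7.64, 7.50 and 7.60 in physioxia, and all 4 air libraries were above all 4 physioxia libraries. By gene, air libraries 1 to 4 were above all 4 physioxia libraries for 57.7%, 65.4%, 46.2% and 30.8% of the 52. The shares of all genes were 18.7%, 23.4%, 22% and 19%. The median of the 52 was −0.408 without air libraries 3 and 4 and −0.148 without air libraries 1 and 2.

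**Figure D5:**
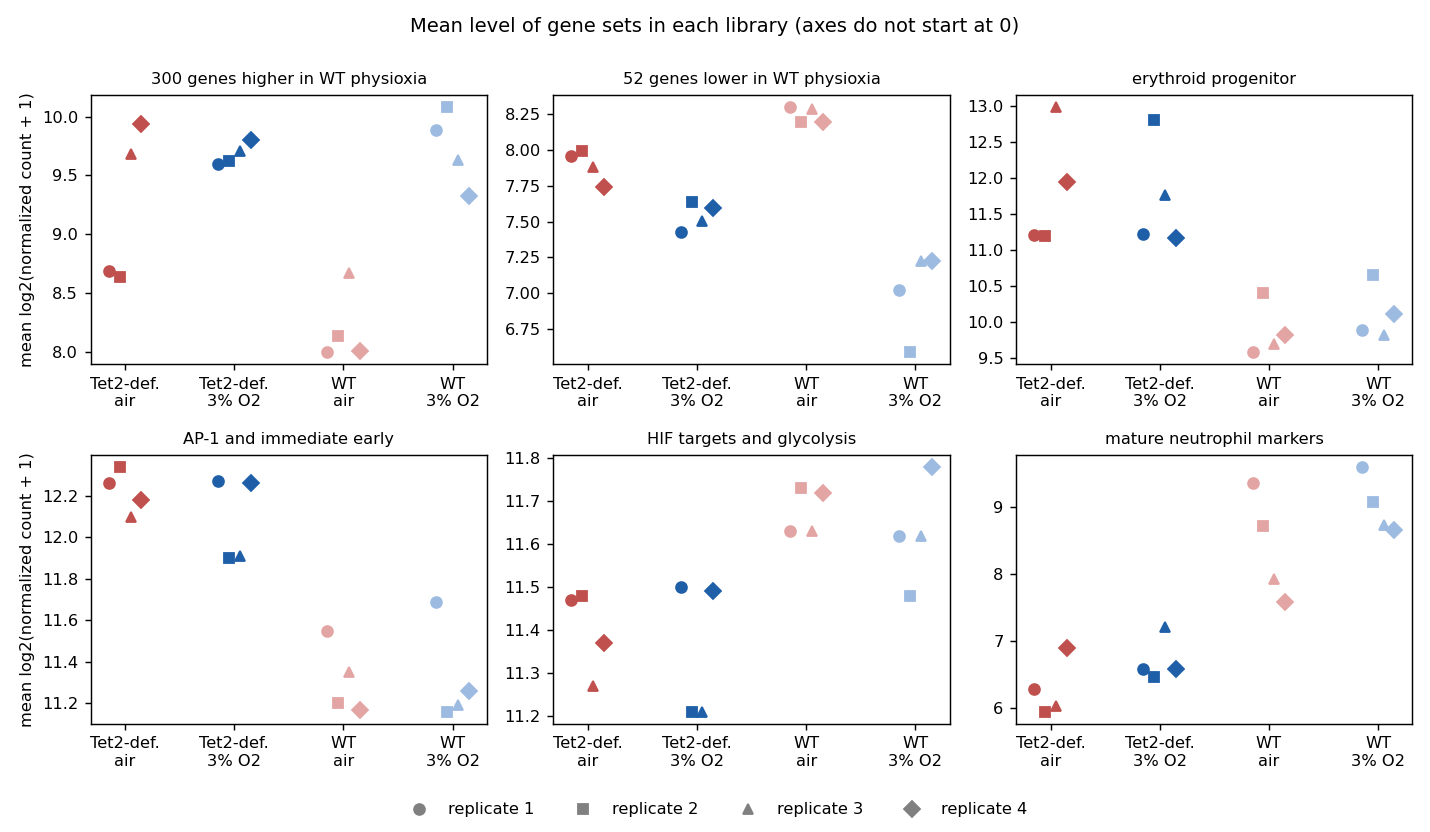
Mean log2(normalized count + 1) of 6 gene sets in each of the 16 libraries (y axes do not start at 0), by genotype and oxygen, with symbols for the replicate number. For the 300 genes higher in WT physioxia, Tet2-deficient air libraries 1 and 2 lie at 8.69 and 8.64 and air libraries 3 and 4 at 9.68 and 9.94, level with physioxia.

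Tcf3, which encodes the E2A factors of lymphoid and stem cell programmes, shows the split. It was at 3303, 1849, 10111 and 11058 in air and 7896, 7705, 7570 and 9996 in physioxia, and averaged 1593 ± 959 and 5780 ± 831 in WT air and physioxia. Rab5if, an interactor of the endosomal GTPase Rab5, was at 741, 937, 2599 and 4379 in air and 2214, 1789, 2324 and 3150 in physioxia. Both genes had higher values in air libraries 3 and 4 than in at least 3 of the 4 physioxia libraries. Without air libraries 3 and 4, 152 genes passed the limma test (2.49%), 146 higher and 6 lower in physioxia, and 108 of the 146 were among the 300 WT genes (74% of the 146 and 36% of the 300). Without air libraries 1 and 2, 0 passed, and the median of the 300 genes was −0.07 in place of 0.397 (0.847 without air libraries 3 and 4). These pairs were told apart on the same values, so the counts describe the libraries and are no test of physioxia. Air libraries 3 and 4 also held the lower shares of reads in the 10 most abundant genes and the higher erythroid levels given above, and the part of either in the split was not tested.

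The difference between the genotypes in their response to oxygen was tested directly as an interaction, and 0 of 6110 genes passed (0%; 546 at an unadjusted p under 0.05, 8.94%, by limma; smallest adjusted p 0.552; DESeq2 called 8 genes). Without air libraries 1 and 2, 184 genes passed by limma, 2 of them higher and 182 lower in Tet2-deficient than in WT response, and without air libraries 3 and 4, 0 passed. As above, these pairs were chosen on the same values. Of the 300 genes higher in WT physioxia, 155 had an unadjusted interaction p under 0.05. These genes were chosen for their WT difference, which the interaction subtracts. That choice favours small interaction p-values, so the count is no evidence that the genotypes differ. With all libraries, passing the test in WT and not in Tet2-deficient cells does not show that a given gene responds differently. The smallest interaction p belonged to Edem1, which directs misfolded glycoproteins to degradation. It was at 1422, 1695, 2071 and 3651 in air without Tet2 and 2497, 2310, 2681 and 3511 in physioxia (0.39 ± 0.33), and averaged 700 ± 210 and 3852 ± 1576 in WT cells (2.38, adjusted p = 0.00955). The interaction was −1.99 ± 0.46 (limma adjusted p = 0.552, as for the genes that follow).

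Rab5if (−3.14 ± 0.82), the Polycomb ring finger gene Pcgf6 (−1.93 ± 0.49), the ubiquitin ligase adaptor Kctd5 (−1.12 ± 0.30) and the endosomal protein gene Plekhf2 (−1.10 ± 0.30) came next in the same direction. All 4 were higher in Tet2-deficient air than in WT air on average, for example Pcgf6 at 609 ± 274 against 165 ± 53.4. In the opposite direction stood Spen, a transcriptional corepressor of the Notch pathway. It was at 198, 254, 273 and 223 in air without Tet2 and 298, 327, 362 and 344 in physioxia, whereas WT means were 337 ± 49.8 in air and 217 ± 62.3 in physioxia. Its arms did not overlap in either genotype and lay in opposite order, with an interaction of 1.17 ± 0.29. Slc44a4, a choline transporter-like gene, had the same pattern at lower counts (1.72 ± 0.45), at 21.1 ± 6.71 and 32.4 ± 2.25 in Tet2-deficient cells and 57.7 ± 17.4 and 28.1 ± 12.3 in WT cells. Slfn9, a Schlafen family gene, averaged 642 ± 40.8 and 723 ± 120 in Tet2-deficient cells with overlapping arms, against 307 ± 30.2 and 199 ± 43.6 in WT cells. Cfap44 and Rbm20, both under 20 normalized counts in every group mean, had interactions of 2.81 ± 0.79 and 2.38 ± 0.68.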

How the data were processed

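Bulk RNA sequencing libraries of 16 samples were used, 4 per group, all in 1 table. Its values are a signal deposited by the authors, read counts divided by a size factor per library. The submitters' processing notes name GRCm38 as the build and the tools STAR, HTSeq, cutadapt, FastQC and DESeq2, without versions or what each did. Whole reads were recovered, as 100% of values were whole multiples of the value of 1 read within 0.01, and were used for edgeR 4.0.16 and DESeq2 1.42.0. How the genes of the table were chosen is not given in the sources used here. Symbols came from GENCODE M21 for 6278 genes, and 10 had none.

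Genes reaching a normalized count of 10 in 4 or more libraries were tested, which left out 178. In R 4.3.3, limma 3.58.1 was run with an intensity trend on log2 values (pseudocount 1). One fit took all 16 libraries with a mean per group and no block, and tests were two-sided. A Benjamini-Hochberg adjusted p under 0.05 was the threshold. Fold changes on this scale understate changes of low genes. The scripts were tested on simulated data. The genes described, up to 15 per direction, have a mean of at least 50 in 1 group, separate arms and the smallest p, with up to 4 members of each of 32 lists, a few fixed genes and 5 interaction genes per direction. Immunoglobulin and T cell receptor segments, Gm and Rik symbols were left out of the first and last. A gene that the rule names is not reported here. Members and lists were chosen with earlier results of these data known. The labels call the replicates biological and matched but tie no number to a harvest, so p-values measure the spread between these samples. Alternatives were other pseudocounts, filters, scalings, tools, a replicate block and leaving out libraries.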

Additional observations from a re-analysis of the deposited data

Results flagged for a closer look

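Of 252 groups of 4 libraries examined, 12 (4.76%) had a library whose gap to its nearest neighbour was large against the group's range. Chance flags about 1 in 20 groups. In Tet2-deficient air these were Sgk1 in library 1 (457 against 340 to 349 in the others), Egr1 in library 2 (87500 against 61000 to 62700), Slc4a1 in library 3 (23300 against 2890 to 5710), and, in library 4, Myc (14500 against 15300 in the others), Nfkbia (25600 against 30100 to 30700) and Plk3 (1020 against 310 to 313). The mean log2 level of nuclear oxidative phosphorylation genes was 10.39 in air library 2 against 11.02 to 11.05.

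In Tet2-deficient physioxia they were Slc4a1 in library 2 (16700 against 2350 to 3070), Fam83d in library 3 (170 against 291 to 305), the mean log2 level of mature neutrophil markers in library 3 (7.211 against 6.463 to 6.577), and, in library 4, Macf1 (786 against 884 to 901) and Tcf3 (10000 against 7570 to 7900).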

How the results depend on the processing

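In Tet2-deficient cells 0 genes passed under most alternatives. With a pseudocount of 5 there was 1 (Ighv4-2), with DESeq2 9 (among them Sgk1, Vac14, Mpp7, Gm14636, Gm16141, Gm45640, Ighv4-2 and Igkv8-34, the last with 172 of its 173 air reads in library 4), and leaving out 1 replicate gave 0 to 1 (Igkv12-38, without air library 4). Without air libraries 3 and 4, a choice made after seeing the data, there were 152. In WT cells there were 539 with DESeq2 and 0 when all annotated genes that the table lacks were taken as not differing. The interaction gave 8 with DESeq2 and 184 without air libraries 1 and 2. With the replicate number as a block 0 genes passed in Tet2-deficient cells (328 at an unadjusted p under 0.05). Their same-numbered libraries correlated at 0.322, −0.275, 0.0423 and −0.00608, and not every library correlated best with its own number. The highest value was 0.5, between air library 3 and physioxia library 2, which had the highest erythroid levels of their arms. Pairing by number was thus not seen, but these values cannot show whether libraries of different numbers shared a harvest. In WT cells the same-numbered correlations were 0.332, 0.178, 0.162 and 0.331, each the highest for its libraries. The counts above used no block, and with the block 462 genes passed in WT cells in place of 352, and 0 in the interaction.

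Some log2 differences changed sign. Without air libraries 3 and 4, Slc2a1 was −0.131, Egr1 −0.102 and Slc4a1 0.465. Without air libraries 1 and 2, Bhlhe40 was 0.352, Tet1 −0.058, Jun 0.0289, Edem1 −0.0185, Gadd45a −0.132, Tgfb1 −0.177, Kit 0.127, Lmo2 −0.0565, Tcf3 −0.36, Rab5if −0.54 and Pcgf6 −0.467. Dusp1 was −0.00933 with edgeR and TMM, and Fos 0.00436 with edgeR at the authors' size factors and 0.00439 with DESeq2. Pcgf6 was −0.0454 with quantile normalization, −0.144 with edgeR and TMM, and −0.115 with edgeR at the authors' size factors and with DESeq2. Leaving out 1 replicate gave −0.26 to 0.118 for Bhlhe40, −0.119 to 0.0204 for Hif1a, −0.00514 to 0.118 for Tet1, −0.064 to 0.158 for Dusp1, −0.166 to 0.129 for Fos, −0.142 to 0.157 for Egr1, −0.166 to 0.0245 for Kit, −1.16 to 0.161 for Slc4a1, −0.346 to 0.264 for Pcgf6 and −0.067 to 0.247 for Plekhf2. The cause was not tested. A planned promoter description of called genes was not run, as limma called none.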
